A study of Bos taurus with 12 samples.

Results

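The genes described are 10 that carry the insulin signal into muscle or hold back its growth: the transcription factors FOXO1 and FOXO3, the insulin receptor INSR, the adaptors IRS1 and IRS2, the phosphoinositide 3-kinase subunit PIK3R1, the kinases AKT1 and MTOR, and the inhibitors of MTOR signalling DDIT4 and SESN1. Their mRNA was measured in biceps brachii muscle of 12 bulls aged 18 to 20 months, on 1-colour Agilent arrays, 1 array per bull. Of 24 bulls in the study, 8 per group, the 4 per group with the best RNA were hybridised, which is a selection and not a random sample. The first group was fed dexamethasone, a synthetic glucocorticoid, at 0.75 mg per head for 42 days. The second was fed dexamethasone at 0.66 mg per head for 21 days in combination with clenbuterol, a beta-adrenergic agonist, for 28 days, at 2 mg per head in the first week, 4 mg in the second and 6 mg in the last 2 weeks. The third was the untreated control. Compared with each other, the treated groups thus differ both in clenbuterol and in how much dexamethasone was fed and for how many days, and the labels leave out how long before slaughter feeding ended.

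Members were found by name: every probe other than a control whose gene name, gene number, accession or description leads to 1 of the 10 symbols. That gave 14 of the 21475 probes, and 12 of them were well above background on at least 4 arrays. Each of the 10 genes kept at least 1 probe, out of 13669 genes tested, and the probe that stands for each gene was well above background and unsaturated on all 12 arrays. The 2 probes left out, 1 for PIK3R1 and 1 for MTOR, were well above background on 0 arrays. The probes that stand for FOXO1, IRS2, PIK3R1 and MTOR were named only by the human match in their description. For MTOR, the probe named by symbol is the one left out. Another 3 probes are described on the array as similar to the insulin receptor or to IRS2 but map to no member symbol, and they are given separately. Levels below are log2 of the signal relative to the 75th percentile of that array, and they are compared between bulls for 1 probe, never between probes.

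Insulin binds its receptor, which phosphorylates IRS adaptors. These recruit phosphoinositide 3-kinase through its regulatory subunits, and the kinase activates AKT. AKT phosphorylates FOXO proteins, which then leave the nucleus, and it releases the MTOR complex that drives protein synthesis. In muscle FOXO factors are known for switching on genes of protein breakdown, glucocorticoids are known to raise PIK3R1, FOXO and DDIT4 mRNA in rodent muscle, and DDIT4 and the sestrins restrain the MTOR complex. Beta-adrenergic agonists such as clenbuterol are known to favour muscle growth.

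The arrays were of muscle by their marker genes. All 11 measured fibre markers of 14 listed were well above background on every array, and their mean level ran from 7.01 to 7.84 on dexamethasone arrays, from 7.20 to 8.02 on combination arrays and from 7.43 to 7.72 on control arrays. The share of spots well above background was 53.2% to 68.7%. Precision is limited by how many arrays there are. The headers of the scanner files give the scan day and the slide. Scan day 2 holds 3 dexamethasone arrays, 3 combination arrays and 1 control array, and the 5 others were scanned on 3 other days. The negative-control signal was 67.3 to 92.5 on scan day 2 and 30.8 to 43.7 on the other days. Treatment and scan day are thus partly tied, so the log2 change of each member is also given within and outside scan day 2, without a test. Each of the other scan days holds 1 group: control replicates 1 to 3, dexamethasone replicate 4 or combination replicate 4. Values outside scan day 2 thus cannot be told apart from differences between days. Within it, each comparison with control rests on 1 control array. With each scan day as a block, the group differences come from scan day 2 alone, so that fit repeats the values within it. For dexamethasone replicate 4 the array code in the labels gives another slide, that of combination replicates 1 to 3, than the file header does. The header's slide was used, and slide by label code was added as an alternative after seeing the data. By header, combination arrays lie on slides 3 and 5, which hold no other group. Control arrays lie on slides 1 and 2, and dexamethasone arrays on slides 2 and 4. Differences of combination bulls from the other groups thus cannot be told apart from differences between slides.

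The first comparison asked which of these genes differ between dexamethasone bulls and untreated bulls. PIK3R1 was lower in dexamethasone bulls and was the single member that passed the test. FOXO1, FOXO3, SESN1 and DDIT4 had lower means and INSR a higher mean, without passing. IRS1, IRS2, AKT1 and MTOR did not pass either, with log2 changes of 0.40, 0.32, 0.12 and 0.18. In all, limma called 1 of 10 members at an adjusted p under 0.05, against 0.615% of all genes tested (84 of 13669, with 0.585% lower and 0.0293% higher). Another rule, an unadjusted p under 0.05, took in 6 of 10 members, against 12.3% of all genes. In 4 of 10 members the groups' values did not overlap, against 6.45% of all genes. Of these members 3 were lower, against 3.93% of all genes, and 1 was higher, against 2.52%. The median log2 change was -0.35 over the members and 0.03 over all genes. Below 0 were 5 of 10 members, against 45.4% of all genes. The members were chosen with earlier results of these data known, so these shares and medians were not tested.

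**Figure D1:**
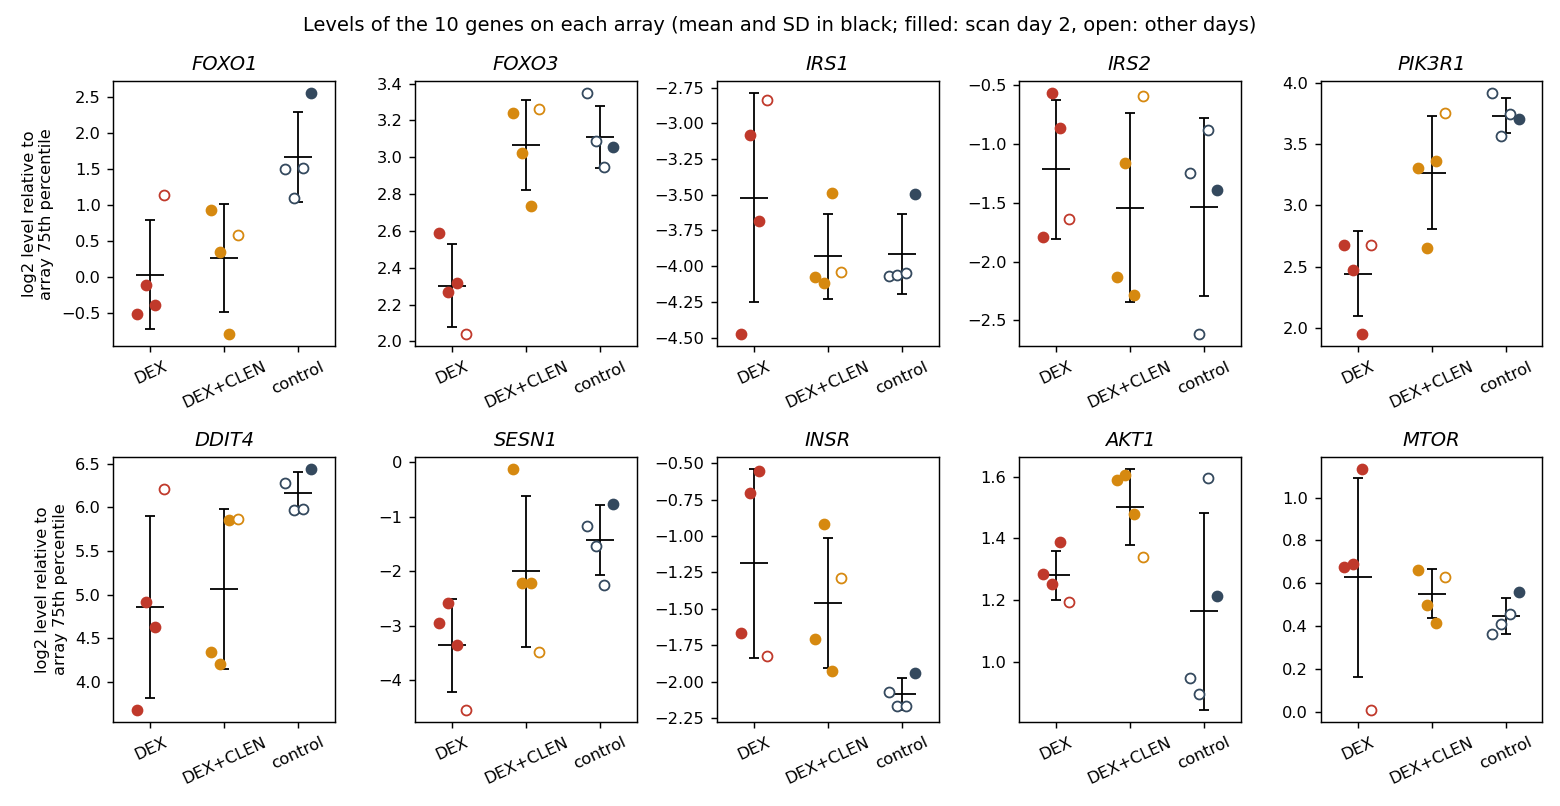
Log2 level relative to the array's 75th percentile for each of the 10 genes (y axis, a separate scale per gene) in the 4 bulls of each group (x axis: dexamethasone, dexamethasone plus clenbuterol, control); black bars are the group mean and SD, filled points were scanned on day 2 and open points on other days. PIK3R1 lies between 1.95 and 2.68 in all 4 dexamethasone bulls and between 3.56 and 3.92 in the 4 untreated bulls.

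PIK3R1 encodes a regulatory subunit that stabilises the catalytic subunit of phosphoinositide 3-kinase and docks it on IRS proteins. Its level was 2.68, 2.47, 1.95 and 2.68 in dexamethasone bulls and 3.92, 3.56, 3.75 and 3.71 in untreated bulls. All 4 dexamethasone bulls were below every untreated bull. The means were 2.45 ± 0.34 and 3.73 ± 0.14 (SD, n = 4 each), a 2.44-fold lower level (log2 change -1.29 ± 0.24 SE, 95% interval -1.80 to -0.77, limma adjusted p = 0.0366). The log2 change was -1.34 within scan day 2 and -1.06 outside it. The call was lost under several alternatives. With scan day 2 against the other days as a block, the change was -1.12 and the adjusted p 0.128, with each scan day as a block -1.34 and 0.322, and without the filter on dim probes the adjusted p was 0.0765. Leaving out 1 array at a time gave changes of -1.37 to -1.12 and adjusted p-values from 0.0165 to 0.124, under 0.05 in 4 of 12 fits.

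PIK3R1 was covered by 4 probes. The probe that stands for it, A_73_101432, and probe A_73_112809 were named by human match, and probe A_73_105509 by accession. Fitted on its own, probe A_73_105509 gave levels of -2.19, -2.03, -3.21 and -2.54 in dexamethasone bulls and -1.50, -0.98, -1.66 and -1.26 in untreated bulls, with a log2 change of -1.14 (limma adjusted p = 0.0788). Probe A_73_112809 gave -0.05, 0.02, -0.07 and 0.27 in dexamethasone bulls and 0.88, 1.12, 0.37 and 0.84 in untreated bulls, with a log2 change of -0.76 (limma adjusted p = 0.134). In both probes every dexamethasone value was below every control value, and neither passed the test. The 3 probes thus had the same direction and changes of unequal size.

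**Figure D2:**
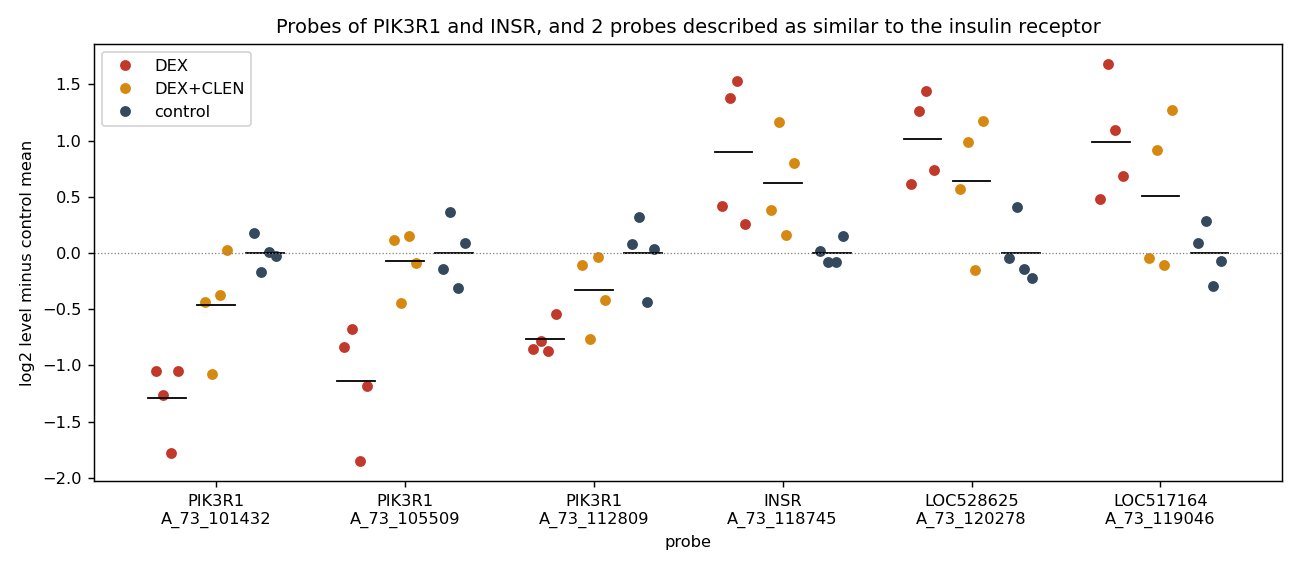
Log2 level minus the mean of the 4 untreated bulls (y axis) for the 3 measured probes of PIK3R1, the probe of INSR and 2 probes described as similar to the insulin receptor (x axis); red points are dexamethasone bulls, orange points are combination bulls, dark points are untreated bulls, and bars are group means. The mean of dexamethasone bulls is 1.29, 1.14 and 0.76 below 0 for the PIK3R1 probes. It is 0.90 above 0 for the INSR probe, and 1.01 and 0.99 above 0 for the 2 probes described as similar.

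FOXO3, a FOXO factor that drives genes of autophagy and protein breakdown in muscle, had levels of 2.59, 2.27, 2.32 and 2.04 in dexamethasone bulls and 3.35, 3.09, 2.95 and 3.06 in untreated bulls. The groups did not overlap. Dexamethasone minus control was -0.81 ± 0.17 SE (95% interval -1.18 to -0.43) and missed the threshold (limma adjusted p = 0.0683). It was -0.67 within scan day 2 and -1.09 outside it. Without dexamethasone replicate 1, the highest of its group, the change was -0.90 and passed (limma adjusted p = 0.0285), which made 2 members called.

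FOXO1, the other FOXO factor of the set, had levels of -0.51, -0.12, -0.38 and 1.14 in dexamethasone bulls and 1.50, 1.10, 1.51 and 2.55 in untreated bulls. Dexamethasone replicate 4 lay inside the control range and the other 3 bulls below it. In log2 terms the difference was -1.64 ± 0.45 SE (limma adjusted p = 0.140). It was -2.89 within scan day 2, where the single control array is the highest of its group, and -0.24 outside it, where the single dexamethasone array is the highest of its group.

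Of the MTOR inhibitors, DDIT4, which is induced by stress and acts through the TSC complex, had levels of 3.68, 4.92, 4.63 and 6.21 in dexamethasone bulls and 6.28, 5.97, 5.99 and 6.44 in untreated bulls. Dexamethasone replicate 4 again lay inside the control range. The log2 change was -1.31 ± 0.51 SE (limma adjusted p = 0.312), -2.03 within scan day 2 and 0.13 outside it.

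SESN1, a sestrin that restrains the MTOR complex when amino acids are scarce, had levels of -2.94, -2.58, -3.35 and -4.54 in dexamethasone bulls and -1.17, -1.53, -2.26 and -0.76 in untreated bulls. All dexamethasone bulls were below all untreated bulls. Its log2 change, -1.93 ± 0.63 SE, was the largest in size among the members, with a wide interval of -3.29 to -0.56 (limma adjusted p = 0.224). It was -2.19 within scan day 2 and -2.89 outside it. In the RefSeq annotation SESN1 and FOXO3 lie on the same chromosome with 3 annotated genes between them, of which 1, ARMC2, codes for a protein.

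INSR, the insulin receptor, had levels of -1.67, -0.71, -0.55 and -1.82 in dexamethasone bulls and -2.07, -2.17, -2.17 and -1.94 in untreated bulls. Every dexamethasone bull was above every untreated bull, replicates 1 and 4 by little. On the log2 scale the change was 0.90 ± 0.30 SE (95% interval 0.24 to 1.56, limma adjusted p = 0.239), 0.96 within scan day 2 and 0.31 outside it. Both probes described as similar to the insulin receptor precursor were well above background on all 12 arrays. Fitted on their own, they gave log2 changes of 1.01 for LOC528625 (limma adjusted p = 0.166) and 0.99 for LOC517164 (limma adjusted p = 0.250). Neither passed the test. Whether they detect INSR transcripts was not tested. The third such probe, LOC617632, described as similar to IRS2, was well above background on 2 of 12 arrays.

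The adaptors and kinases had mean differences that were small against their spread. IRS1, an insulin receptor substrate, had levels of -4.48, -3.08, -3.69 and -2.84 in dexamethasone bulls and -4.07, -4.06, -4.05 and -3.50 in untreated bulls, with a log2 change of 0.40 ± 0.32 SE (limma adjusted p = 0.670). It was -0.25 within scan day 2 and 1.22 outside it, so its sign turned. IRS2, its relative, gave 0.32 (95% interval -0.67 to 1.31), 0.32 within scan day 2 and -0.055 outside it. AKT1, a kinase at the centre of the pathway, had levels of 1.20 to 1.39 in dexamethasone bulls and 0.90 to 1.59 in untreated bulls, with a log2 change of 0.12 (95% interval -0.25 to 0.48), 0.095 within scan day 2 and 0.048 outside it. MTOR gave 0.18 (95% interval -0.27 to 0.63), with dexamethasone replicate 4 the lowest bull of all at 0.01. Within scan day 2 MTOR gave 0.27 and outside it -0.40. The intervals of AKT1 and MTOR leave out changes beyond 0.63 in size on the log2 scale. Those of IRS1 (-0.29 to 1.08) and IRS2 are too wide to leave out a doubling.

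Whole muscle was measured, so fewer cells of a type and less RNA per cell cannot be told apart. The fibroblast markers (11 measured of 12, 10 of them well above background on all arrays) averaged -0.25 to 1.59 on dexamethasone arrays, 0.77 to 1.85 on combination arrays and 1.57 to 1.96 on control arrays. The leukocyte markers (11 of 13 measured, 4 well above background on all arrays) averaged -4.04 to -2.13 on dexamethasone arrays, -3.19 to -2.74 on combination arrays and -2.68 to -2.31 on control arrays. The part of these cells in the members' differences was not tested. The means of fibre, adipocyte, endothelial and blood cell markers overlapped between dexamethasone and control arrays. The means of smooth muscle and pericyte markers were 1.09 to 1.32 on dexamethasone arrays, 1.08 to 1.65 on combination arrays and 0.78 to 1.06 on control arrays.

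The second comparison asked which members differ between combination bulls and untreated bulls. No member passed (0 of 10, against 0.0439% or 6 of all 13669 genes, 0.0293% lower and 0.0146% higher), and 1 of 10 had an unadjusted p under 0.05 against 12.1% of all genes. The groups did not overlap in 3 of 10 members, against 8.22% of all genes: FOXO1 and DDIT4 were lower, against 3.72% of all genes, and INSR was higher, against 4.5%. FOXO3, PIK3R1 and SESN1 overlapped with the controls. The median log2 change was -0.03 over the members and 0.03 over all genes.

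FOXO1 had levels of 0.92, 0.35, -0.79 and 0.59 in combination bulls, against 1.10 to 2.55 in untreated bulls. Its log2 change was -1.40 ± 0.45 SE (95% interval -2.38 to -0.43, limma adjusted p = 0.270), -2.39 within scan day 2 and -0.79 outside it. DDIT4 had levels of 4.34, 4.21, 5.85 and 5.87 in combination bulls, against 5.97 to 6.44 in untreated bulls. The 4 values split into a lower pair and a pair just under the lowest control, and the log2 change was -1.10 ± 0.51 SE (limma adjusted p = 0.415), -1.64 within scan day 2 and -0.21 outside it.

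INSR had levels of -1.71, -0.92, -1.93 and -1.29 in combination bulls, against -2.17 to -1.94 in untreated bulls. Combination replicate 3 exceeded the highest control by a small margin. The log2 change was 0.63 ± 0.30 SE (limma adjusted p = 0.431), 0.42 within scan day 2 and 0.85 outside it, and the probes LOC528625 and LOC517164 gave 0.64 and 0.51, with overlap between the groups. AKT1 gave 0.34 (95% interval -0.03 to 0.70, limma adjusted p = 0.440), all 4 combination bulls being above the control mean, as were all 4 dexamethasone bulls. The groups overlapped, with control replicate 3 at 1.59 and combination bulls at 1.34 to 1.61. AKT1 gave 0.34 within scan day 2 and 0.19 outside it.

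PIK3R1 had levels of 3.30, 2.65, 3.36 and 3.76 in combination bulls, against 3.56 to 3.92 in untreated bulls. Combination replicate 4 lay inside the control range, and the log2 change was -0.46 ± 0.24 SE (95% interval -0.98 to 0.05, limma adjusted p = 0.451). It was -0.60 within scan day 2 and 0.015 outside it. The remaining probes gave -0.07 and -0.33. FOXO3 had levels of 3.24, 3.02, 2.74 and 3.26 in combination bulls, with a log2 change of -0.04 (95% interval -0.42 to 0.33), -0.057 within scan day 2 and 0.13 outside it. The 95% interval holds no change as large in size as the -0.81 of dexamethasone bulls.

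SESN1 had levels of -0.12, -2.21, -2.21 and -3.47 in combination bulls, the widest spread of any member in any group (SD 1.39). The log2 change was -0.57 ± 0.63 SE (limma adjusted p = 0.743), -0.75 within scan day 2 and -1.82 outside it. IRS1, IRS2 and MTOR gave log2 changes of -0.01, -0.01 and 0.10, and their 95% intervals ran from -0.70 to 0.67, from -1.0 to 0.98 and from -0.34 to 0.55. Within scan day 2 they gave -0.40, -0.46 and -0.035, and outside it 0.017, 0.99 and 0.22.

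**Figure D3:**
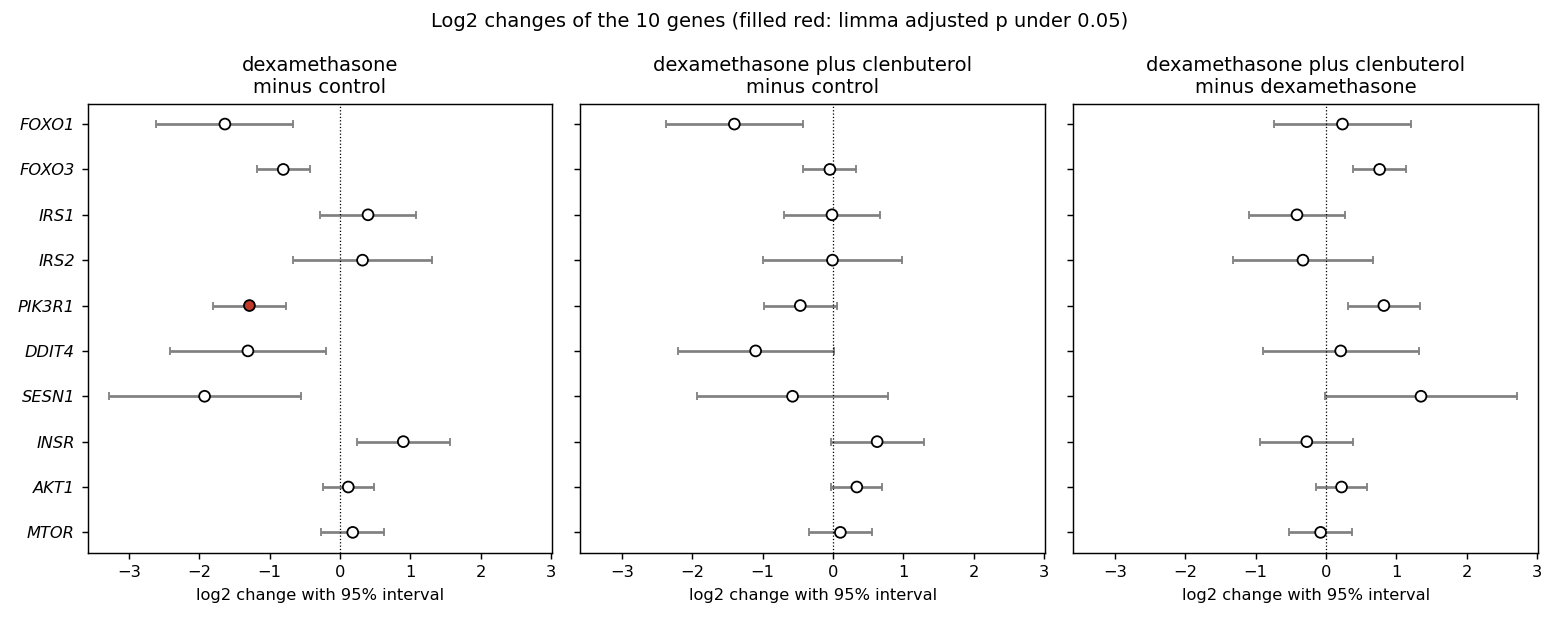
Log2 change of each of the 10 genes (x axis, with unadjusted 95% intervals) in the 3 contrasts named above the panels, genes from top to bottom; a filled red point has a limma adjusted p under 0.05. PIK3R1 in dexamethasone minus control, at -1.29, is the one filled point.

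The third comparison set combination bulls against dexamethasone bulls. It shares each treated group with 1 of the comparisons above, so its values are not independent of them. No member passed (0 of 10, against 0.0146% or 2 of all 13669 genes). The unadjusted p was under 0.05 in 2 of 10 members, FOXO3 and PIK3R1, both with higher means, against 11% of all genes (1505 of 13669). In 1 of 10 members, higher in combination bulls, the groups did not overlap, against 5.3% of all genes and 2.53% higher ones. The median log2 change was 0.22 over the members and 0.02 over all genes.

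FOXO3 was the member without overlap, at 2.74 to 3.26 in combination bulls and 2.04 to 2.59 in dexamethasone bulls. FOXO3 thus had a log2 change of 0.76 ± 0.17 SE (95% interval 0.39 to 1.14, limma adjusted p = 0.165), 0.61 within scan day 2 and 1.22 outside it. PIK3R1 was at 2.65 to 3.76 in combination bulls and 1.95 to 2.68 in dexamethasone bulls, and combination replicate 2 was just below the 2 highest dexamethasone bulls. PIK3R1 gave a log2 change of 0.82 ± 0.24 SE (95% interval 0.31 to 1.34, limma adjusted p = 0.239), 0.74 within scan day 2 and 1.08 outside it. The remaining probes gave 1.07 and 0.43.

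SESN1 gave a log2 change of 1.35 ± 0.63 SE between combination and dexamethasone bulls (limma adjusted p = 0.456), with combination replicate 1 far above the rest. It was 1.44 within scan day 2 and 1.07 outside it. FOXO1 and DDIT4 gave 0.23 ± 0.45 SE and 0.21 ± 0.51 SE, with 0.50 and 0.39 within scan day 2 and -0.55 and -0.34 outside it. INSR gave -0.27 ± 0.30 SE, -0.54 within scan day 2 and 0.54 outside it. Those 3 intervals include 0, and that of FOXO1 runs from -0.74 to 1.21, so neither likeness nor a moderate difference between the treated groups is shown. IRS1, IRS2, AKT1 and MTOR gave -0.41, -0.33, 0.22 and -0.08, none of them past the test. Within scan day 2 these 4 genes gave -0.15, -0.78, 0.25 and -0.31, and outside it -1.21, 1.04, 0.14 and 0.62, so IRS2 and MTOR turned sign.

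By their group means, FOXO1, FOXO3, PIK3R1, DDIT4 and SESN1 shared 1 order, lowest in dexamethasone bulls, then combination bulls, then untreated bulls. INSR and MTOR had the opposite order. IRS1 and IRS2 were highest in dexamethasone bulls and lowest in combination bulls, and AKT1 was highest in combination bulls and lowest in untreated bulls. Combination and untreated bulls overlapped for FOXO3, PIK3R1 and SESN1 and not for FOXO1, DDIT4 and INSR. Combination and dexamethasone bulls overlapped for each of these but FOXO3. For IRS1, IRS2, AKT1 and MTOR neighbours in the order overlapped throughout.

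Around the members, 5 lists of the same pathway were described, with 108 of 128 listed genes measured. In dexamethasone minus control 1 of the 108 was called, against 0.615% of all genes tested. In combination minus control and combination minus dexamethasone 0 were called, against 0.0439% and 0.0146%. The called gene was ENPP1, a membrane phosphodiesterase reported in human cells to inhibit the insulin receptor. Its level was -0.81, -1.78, -1.06 and -1.83 in dexamethasone bulls and 0.00, -0.11, -0.42 and 0.13 in untreated bulls, with no overlap. The log2 change was -1.27 ± 0.25 SE (limma adjusted p = 0.0469), -1.35 within scan day 2 and -1.66 outside it. The call was lost with scan day 2 as a block (limma adjusted p = 0.113) or slide by file header (0.0542) and not with slide by label code (0.0420), and leaving out 1 array at a time kept it in 2 of 12 fits, with adjusted p-values from 0.0119 to 0.153. In combination bulls the mean of ENPP1 lay between those of the other groups. Its values there, -0.72 to -0.14, overlapped those of untreated bulls and not those of dexamethasone bulls. Against dexamethasone bulls the log2 change was 0.89 ± 0.25 SE (limma adjusted p = 0.228), 0.62 within scan day 2 and 1.70 outside it. ENPP1 in combination minus control was -0.73 within scan day 2 and 0.040 outside it.

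Of the other receptor and adaptor genes (13 measured of 15, median log2 change 0.04 in dexamethasone minus control), none passed. IGF1R, the receptor of insulin-like growth factor, was at -2.75 to -2.24 in combination bulls and -4.24 to -2.76 in untreated bulls, a log2 change of 1.0 ± 0.31 SE (limma adjusted p = 0.267). PTPN1, a phosphatase that acts on the insulin receptor, gave -0.52 in dexamethasone minus control and -0.41 in combination minus control. SOCS3, a feedback inhibitor of cytokine and insulin signalling, gave 0.67 in dexamethasone minus control and -0.52 in combination minus dexamethasone.

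In the list of phosphoinositide 3-kinase and AKT genes (22 measured of 27, 0 called in each contrast, median 0.05 in dexamethasone minus control), the lowest p-values were those of TRIB2, a pseudokinase reported to restrain FOXO3 in human cells, and PIK3IP1, an inhibitor of the kinase's catalytic subunit. TRIB2 was at 1.52, 1.20, 1.54 and 1.78 in dexamethasone bulls and 0.16, 0.44, 0.20 and 1.09 in untreated bulls, without overlap (log2 change 1.04 ± 0.24 SE, limma adjusted p = 0.0808). PIK3IP1 gave -1.45 ± 0.41 SE (limma adjusted p = 0.149), with dexamethasone replicate 1 inside the control range. In combination minus control INPP4B, a lipid phosphatase, gave 0.70 ± 0.21 SE (limma adjusted p = 0.251) and GSK3B, a kinase that AKT inhibits, gave 0.39. In combination minus dexamethasone TRIB1, a relative of TRIB2, gave -0.91 and PHLPP1, a phosphatase of AKT, gave 0.46, and neither passed.

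**Figure D4:**
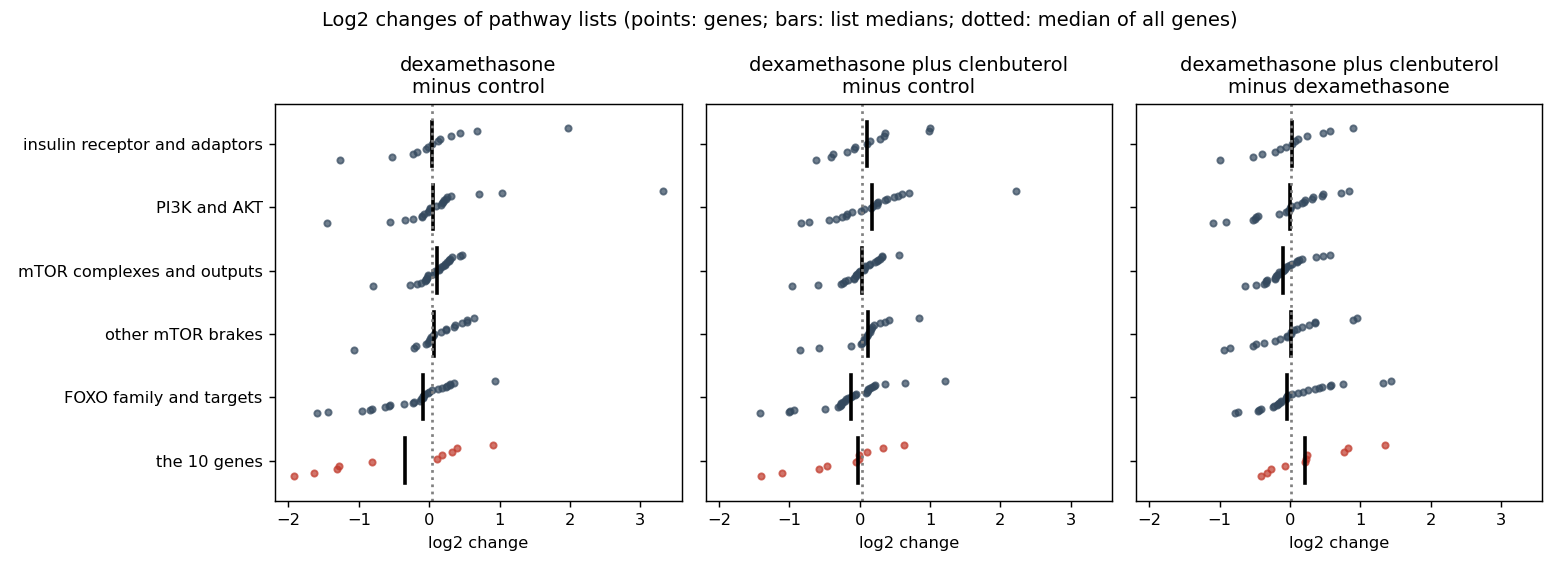
Log2 change (x axis) of each measured gene of the 5 pathway lists (dark points) and of the 10 genes (red points) in the 3 contrasts named above the panels; black bars are medians and the dotted line is the median of all genes tested. The list medians in dexamethasone minus control lie between -0.09 and 0.11, against -0.35 for the 10 genes, of which 5 are below 0. Genes and lists were chosen with earlier results of these data known, so the medians were not tested against each other.

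The MTOR complexes and their outputs (26 measured of 28) had 0 called genes in each contrast, and their log2 changes in dexamethasone minus control ran from -0.80 to 0.47 around a median of 0.11. RPS6KB1, the ribosomal protein kinase that MTOR activates, was at 0.20 to 0.54 in combination bulls and 0.88 to 1.07 in untreated bulls, a log2 change of -0.60 ± 0.15 SE without overlap (limma adjusted p = 0.196). LAMTOR4, a subunit of the lysosomal anchor of the complex, gave -0.80 in dexamethasone minus control and -0.96 in combination minus control. RRAGB, a GTPase that brings the complex to the lysosome, gave 0.47 in dexamethasone minus control and -0.64 in combination minus dexamethasone, and EIF4E, the cap-binding protein, gave -0.49 in combination minus dexamethasone.

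The other inhibitors of MTOR signalling (19 measured of 25, 0 called in each contrast) had a median of 0.07 in dexamethasone minus control, with 6 below 0 and 13 above 0. FLCN, folliculin, was put on this list although it does not only inhibit MTOR. It was at 1.48 to 2.06 in dexamethasone bulls and 0.98 to 1.51 in untreated bulls, a log2 change of 0.63 ± 0.17 SE (limma adjusted p = 0.132). TBC1D7, a subunit of the TSC complex, gave 0.54. SESN2, a relative of SESN1, gave -0.05 in dexamethasone minus control, where SESN1 gave -1.93, and 0.84 ± 0.31 SE in combination minus control (limma adjusted p = 0.335). In combination minus dexamethasone FLCN gave -0.53 (limma adjusted p = 0.290) and SESN2 0.89 (limma adjusted p = 0.329), and neither passed. NPRL3, a subunit of the GATOR complex that senses amino acids, gave 0.42 in combination minus control.

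The list of the FOXO family and its known targets also held SIRT1, EP300 and CREBBP, which act on FOXO proteins. Their log2 changes were -0.09, -0.23 and -0.06 in dexamethasone minus control and -0.31, -0.27 and -0.12 in combination minus control. With them, the list (29 measured of 34, 0 called in each contrast) had a median of -0.09 in dexamethasone minus control, with 20 below 0 and 9 above 0. In combination minus control its median was -0.12. With each scan day as a block these medians were -0.26 and -0.25, and leaving out 1 array at a time gave -0.17 to -0.031 and -0.16 to -0.090. PDK4, the kinase that switches off pyruvate dehydrogenase and a textbook FOXO target, was at 2.25, 3.68, 2.77 and 3.43 in dexamethasone bulls, at 3.67, 2.75, 2.75 and 3.69 in combination bulls and at 4.24, 4.46, 4.54 and 5.26 in untreated bulls. Both treated groups lay below every untreated bull. The log2 changes were -1.60 ± 0.35 SE for dexamethasone (limma adjusted p = 0.0758) and -1.41 ± 0.35 SE for the combination (limma adjusted p = 0.188). GADD45A, a growth arrest gene, gave -1.44 in dexamethasone minus control and 1.32 in combination minus dexamethasone. The 9 genes above 0 in dexamethasone minus control included PINK1 at 0.93 and FBXO32 at 0.18, neither past the test. TXNIP, which limits glucose uptake, gave -1.01 in combination minus control, and SOD2, the mitochondrial superoxide dismutase, gave -0.79 ± 0.19 SE in combination minus dexamethasone without overlap (limma adjusted p = 0.174).

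The genes whose levels over the 12 arrays were most like those of PIK3R1, among 11170 genes with a symbol, were HEXIM2 (Pearson r = 0.948), NFKBIA (r = 0.944) and PGF (r = 0.933). HEXIM2 inhibits a transcription elongation factor, NFKBIA retains NF-kappa-B in the cytoplasm, and PGF is placental growth factor. These correlations include the differences between groups that PIK3R1 and each gene both show. Over deviations from the group means they were 0.794, 0.748 and 0.797. The 12 points share their arrays, scan days and scaling, and the genes were picked for their likeness.

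Among the members themselves, deviations from the group means were set against each other in 45 pairs over 12 arrays. After adjustment over the pairs 0 passed by an exact permutation test within groups, with 13824 permutations, two-sided. The smallest unadjusted p was that of IRS1 and DDIT4 (Pearson r = 0.789, exact permutation p = 0.00658, adjusted p = 0.296; Spearman rho = 0.853, exact permutation p = 0.00796, adjusted p = 0.358). Without the 2 arrays farthest from the median of IRS1, r was 0.533. These correlations were not recomputed within scan days.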

How the data were processed

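Spot intensity on a linear scale was deposited as scanner output of Agilent Feature Extraction 9.5.1.1, per the file headers. A deposited table of the authors' own intensity values, with unstated steps, centring and scale, ranked spots like the scanner signal (Spearman at least 0.999996 per array) and served as an alternative. The processed signal was put on a log2 scale relative to the 75th percentile of its array, without the 1 to 7 spots per array marked as outliers, and averaged over a probe's spots. A probe was kept where it stood well above background on 4 or more of 12 arrays (14703 of 21475). The probe with the highest mean stood for a gene, which left 13669 genes. Names were updated through RefSeq's gene table for assembly ARS-UCD2.0: 9994 probes matched by gene number, 3413 by accession, 385 by symbol and 3423 by the human match in the description, and 4260 kept the file's name. The array design names no build, so no coordinates are given, and no probe sequences were used.

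The group test was limma (version 3.58.1, R version 4.3.3: lmFit with 3 group means over 12 arrays, eBayes, Benjamini-Hochberg over all genes of a contrast, called at an adjusted p under 0.05, two-sided). The fit was tested on simulated data. Replicate numbers follow the order of deposit and pair no bulls. No 2 arrays were duplicates (highest correlation 0.984). The members and lists were chosen with earlier results of these data known, so no list was tested as a set. From each list the text names the called genes, or else the 2 of smallest p per contrast, and 3 genes most like the member of smallest p. Alternatives were the background correction, scaling, the deposited value table, the filter, single probes, scan day and slide as blocks, and leaving out each array. Promoter motifs were not analysed here.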

Additional observations from a re-analysis of the deposited data

Results flagged for a closer look

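Of 30 groups of 4 arrays, 10 members in 3 groups, 2 held an array far from the other 3 by Dixon's criterion, and chance flags about 1 in 20 groups. Both were of IRS1. Combination replicate 3 was at -3.49, against -4.12 to -4.04 for the other combination bulls. Control replicate 4 was at -3.50, against -4.07 to -4.05 for the other untreated bulls. Both arrays were scanned on day 2, and so were combination replicates 1 and 2, at -4.08 and -4.12.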

How the results depend on the processing

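The number of members called in dexamethasone minus control was 1, and 0 with no filter on dim probes, 0 with scan day 2 against other days as a block and 0 with each scan day as a block. It ran from 0 to 2 when 1 array was left out, and was 1 with normexp background, quantile normalization, the deposited value table, a filter on all arrays, every probe fitted and slide as a random block, by file header or by label code (the last added after seeing the data). In the other contrasts it was 0 under every alternative run. Over all genes, 84 calls in dexamethasone minus control became 25 with no filter, 13 and 0 with the 2 scan day blocks and 24 to 261 without 1 array. The 6 calls in combination minus control became 3 with quantile normalization, 0 with no filter, the filter on all arrays, a scan day block or slide by header, and 0 to 10 without 1 array, and the 2 in combination minus dexamethasone became 1 with normexp or the filter on all arrays, 0 with quantile normalization, no filter, a scan day block or slide by header, and 0 to 74 without 1 array. With slide by label code the last 2 of these counts were 6 and 2. Where a member changed sign, it was uncalled in that contrast throughout. IRS1 was -0.25 with scan day as a block in dexamethasone minus control. In combination minus control, IRS1 was 0.021 and IRS2 0.078 with the 2-level block, IRS2 0.021 with slide by header, IRS1 0.012 with slide by label code, and MTOR -0.041 with the 2-level block and -0.035 with scan day. Without 1 array, IRS2 in dexamethasone minus control ran from -0.042 to 0.54. In combination minus control FOXO3 ran from -0.11 to 0.066, IRS1 from -0.16 to 0.13 and IRS2 from -0.37 to 0.24. In combination minus dexamethasone DDIT4 ran from -0.18 to 0.66 and MTOR from -0.28 to 0.094. The members without overlap in combination minus dexamethasone were 2 in place of 1 with normexp, quantile normalization or the deposited table. The ENPP1 call was also lost with quantile normalization (adjusted p = 0.0541), the deposited table (0.0541), no filter (0.0961) and slide by header (0.0542). Of the list medians, 16 moved past the spread between replicates under other alternatives and 2 without 1 array. With each scan day as a block the insulin receptor list was -0.33 and the phosphoinositide 3-kinase list -0.060 in combination minus control, and the other MTOR inhibitors -0.16 in combination minus dexamethasone. In 327 other values of a member, direction and side of the threshold held, or the untested value within or outside scan day 2 moved by under 1 SD, and 23 such untested values moved by more. The causes were not tested. No paired analysis was run, because the groups are separate bulls with 1 array each and the labels give no pairing. With 4 bulls a group and scan day partly tied to treatment, changes near the size of the SEs given cannot be resolved. Some changes well beyond their SE did not pass either, such as FOXO3 in dexamethasone minus control (-0.81 ± 0.17 SE).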
